A study of Drosophila melanogaster with 2 samples.

Results

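The Frizzled and Wingless pathway genes are 9 of the 13945 protein-coding genes of Drosophila melanogaster annotated on the 6 chromosome arms used here. They are the ligand gene wg, the receptor genes fz, fz2 and arr, the cytoplasmic genes dsh, sgg and Axn, and the genes of the transcriptional end of the pathway, arm and pan. They were chosen by name, with earlier peak positions and scores of these data in view, so their peak counts are a description and no test was made on them. The peaks come from chromatin immunoprecipitation sequencing (ChIP-seq) of whole embryos, male and female together, collected 0 to 14 h after laying. The embryos stably express CG3407 with a C-terminal GFP tag, and 2 biological replicates of this one genotype form the only group. The labels name a transcription factor ChIP in one field and an input control in another, and the libraries are treated here as ChIP because the peak lists were made from them against a separate control. No group of untagged embryos was used, and a peak from a whole embryo does not say in which cells the protein sat.

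In the canonical Wnt pathway, secreted Wingless binds a Frizzled receptor together with Arrow, the fly LRP co-receptor, at the cell surface. Dishevelled then acts against a destruction complex built on Axin, in which the kinase Shaggy (GSK3) marks Armadillo (β-catenin) for degradation. Armadillo that is not degraded enters the nucleus and joins Pangolin (TCF) on target genes. In the embryo this pathway patterns each segment, and Frizzled also works in planar cell polarity, the orientation of cells within an epithelium.

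Each replicate has a list of 30000 candidate intervals that mixes peaks with background, a pooled list of the same size was made from both replicates, and 4089 of the pooled intervals were kept by IDR, a procedure that compares ranks between replicates. The kept set equals the 4089 highest pooled candidates by score. A summit is the point of highest signal that the caller gave for an interval. Scores have a scale of their own in each list, so across lists ranks are compared, with 1 the highest. Scores in the IDR set ran from 163 to 23642 with a median of 262. Read depth is unknown. All coordinates are on dm6, counted from 1.

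Peaks were unevenly spread over the 9 genes. The gene bodies and the 10 kb on either side held 22 IDR summits, of which fz and arr had 7 each, fz2 and sgg 3 each, dsh and pan 1 each, and wg, arm and Axn none. An IDR summit within 500 bp of a transcription start site (TSS) was found for 2 of the 9 genes, arr and sgg, against 14.1% of all protein-coding genes. One in the gene body was found for 4 of the 9, fz, fz2, arr and sgg, against 10.6% of all protein-coding genes. One in the body or within 10 kb was found for 6 of the 9, against 55.0% of all. These shares depend on gene length, which had a median of 29.6 kb in the 9 genes and 2.17 kb in all protein-coding genes. Among genes of 40 kb or more, 3 of the 4 pathway genes (fz, fz2 and sgg, but not pan) had an IDR summit in the body, against 53.6% of all such genes. Among genes of 10 to 40 kb it was 1 of 2 (arr, but not Axn), against 38.2%, and among genes under 10 kb 0 of 3 (wg, arm and dsh), against 5.45%. Counts this small do not separate the 9 genes from others of their length.

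**Figure D1:**
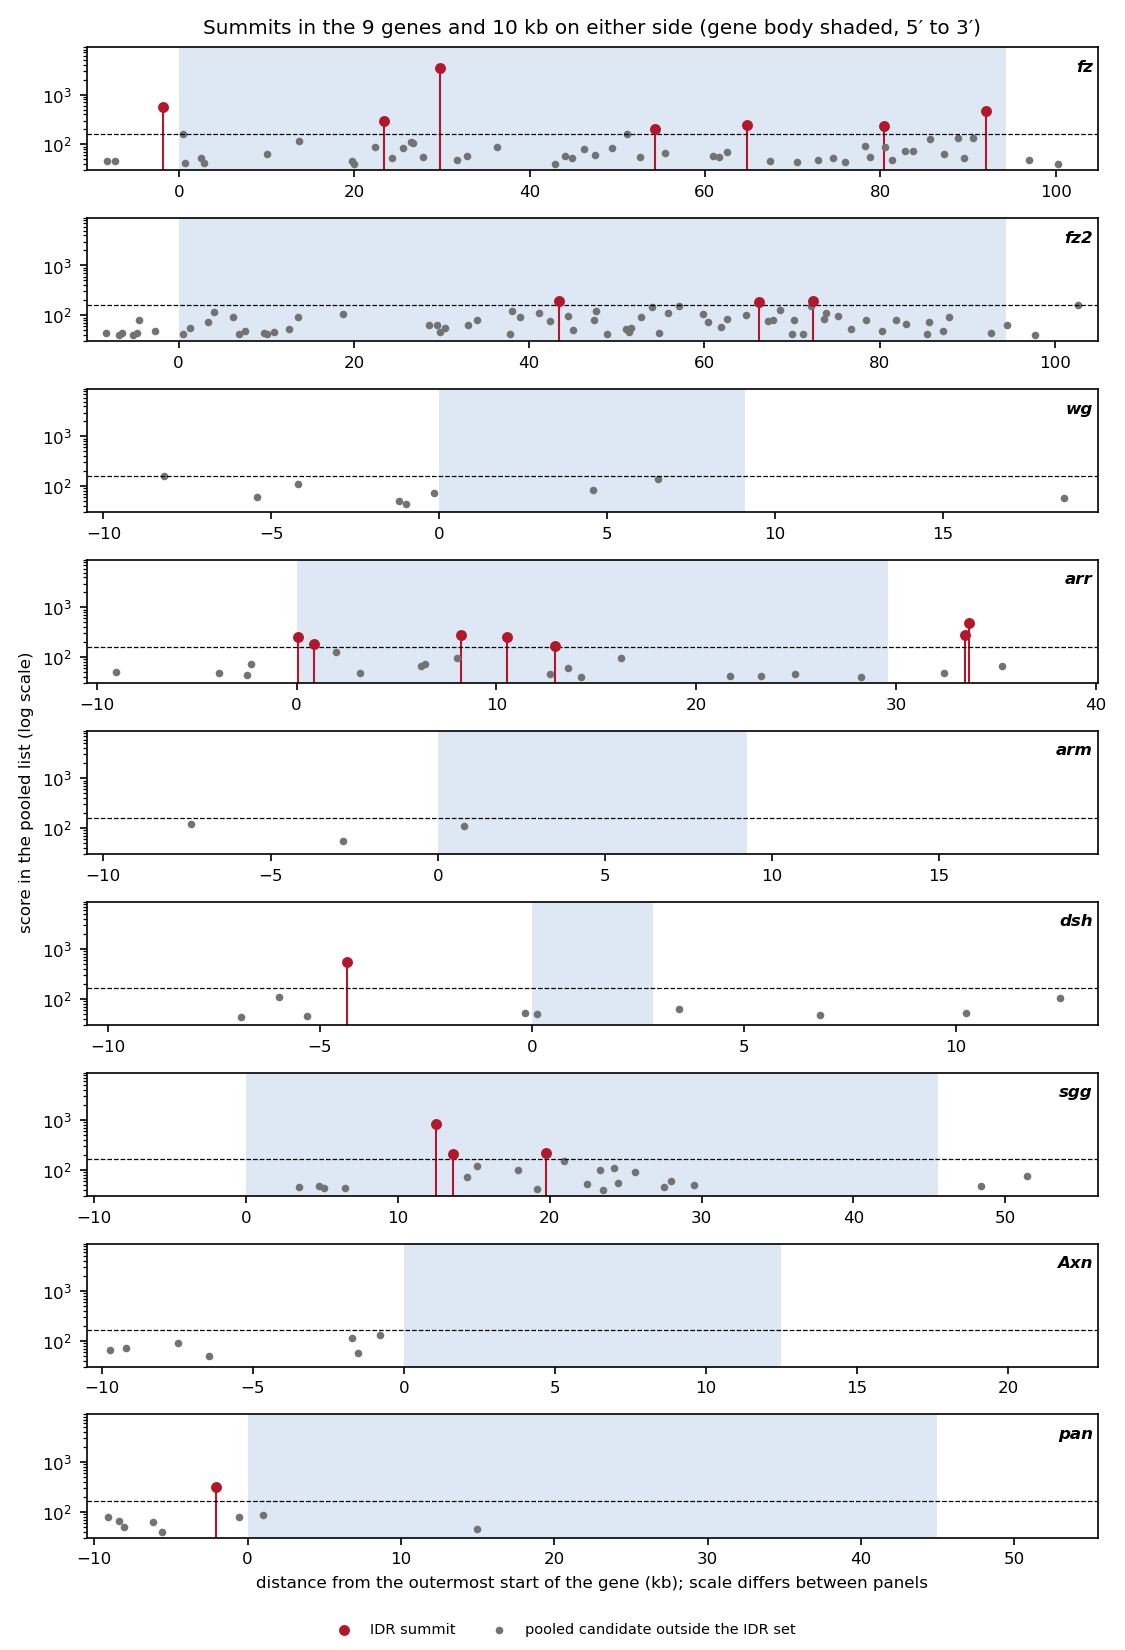
Scores of summits in the pooled list (y axis, log scale) by distance from the outermost start of each gene in kb (x axis), with gene bodies shaded. Red points are IDR summits, grey points are other pooled candidates and the dashed line is the lowest IDR score, 163. One fz summit at 29.8 kb stands far above the others, and wg, arm and Axn have grey points alone.

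The members' summits were not stronger than those of the whole set. Their median score was 251, against 262 for all IDR summits, and 12 of the 22 ranked below the upper 2044. All 17 summits inside the gene bodies lay in introns of the gene, in some or all of its annotated transcripts. Of the 5 outside, 3 lay upstream and 2 downstream. Of the 22 summits, 5 lay within 500 bp of the TSS of any gene (22.7%), against 41.9% of the whole IDR set. Of these 5, those of arr and sgg were at a TSS of the gene itself, while 2 were at cnn and 1 was at RpS3A. The members and their 10 kb flanks held 4.21 IDR summits per 100 kb, against 3.05 for the 6 arms as a whole. For pooled candidates the densities were 41.7 and 22.4 per 100 kb. IDR summits were thus 10.1% of the members' pooled candidates, against 13.6% of the whole pooled list.

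The receptor gene fz (FBgn0001085, 3L:14274343–14368639, plus strand) encodes Frizzled, the seven-pass receptor that gives the family its name. It held the strongest summit of the 9 genes, in intron 1 at 3L:14304118, 29.8 kb from its only annotated TSS. The interval, 3L:14303771–14304420, had a score of 3483 and rank 17 of 4089 in the IDR set. It ranked 17 in replicate 1, with a score of 1352 on that list's scale, and 16 in replicate 2, with a score of 2131. Summits in the 3 lists lay within 1 bp of each other. The peak thus held nearly the same place in both replicates. Among the 2374 IDR summits over 500 bp from every TSS it ranked 15. Its interval of 650 bp is wider than the 416 bp that 63.2% of IDR intervals share, and 29 IDR intervals are wider still. Its score was 6.24 times that of the next fz summit in the pooled list, 5.57 times in replicate 1 and 6.38 times in replicate 2. By the highest IDR score inside the body, fz was eighth of all protein-coding genes, 8 genes with fz included having at least its score.

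The other 6 fz summits were spread from upstream of the gene to its last intron. The next by score lay 1760 bp upstream of the TSS, in intergenic sequence at 3L:14272443–14272676, with a score of 558 and rank 541. It ranked 514 in replicate 1 and 591 in replicate 2. The third lay in intron 4 at 3L:14366216–14366549, 92034 bp from the TSS and near the 3′ end of the gene, with a score of 476 and rank 734. This summit was placed higher in replicate 2, at rank 514, than in replicate 1, at rank 1288. A summit 23.4 kb from the TSS shared intron 1 with the strongest one and had a score of 292 and rank 1727. Intron 4, which is 49.4 kb long, also held summits 54.3, 64.8 and 80.4 kb from the TSS, with scores of 203, 245 and 229.7. Neighbouring summits were 6.42 to 25.1 kb apart, so no 2 of their intervals touch. No IDR summit lay within 500 bp of the fz TSS. The nearest pooled candidate inside the gene lay 527 bp downstream of it, in the 5′ UTR, with a score of 158 and rank 4273, just outside the IDR set. Small genes are nested in fz, and the nearest TSS to the summit at 54.3 kb was that of CG13482, 718 bp away.

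The 101 bases around 4 fz summits are given 5′ to 3′ on the plus strand of RefSeq's dm6 genome, because they hold the strongest site of the pathway genes and every fz site with a searched word. Capitals mark the word TATTTAC or its reverse complement, which was more frequent at IDR summits in earlier results of these data.
fz intron 1, chr3L:14304068-14304168: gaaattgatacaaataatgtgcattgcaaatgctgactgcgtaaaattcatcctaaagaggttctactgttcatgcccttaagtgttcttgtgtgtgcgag
fz upstream, chr3L:14272533-14272633: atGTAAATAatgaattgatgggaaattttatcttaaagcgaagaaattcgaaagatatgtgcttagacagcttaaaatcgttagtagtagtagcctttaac
fz intron 4, chr3L:14328578-14328678: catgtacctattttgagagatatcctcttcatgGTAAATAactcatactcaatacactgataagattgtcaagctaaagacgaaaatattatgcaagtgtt
fz intron 4, chr3L:14366327-14366427: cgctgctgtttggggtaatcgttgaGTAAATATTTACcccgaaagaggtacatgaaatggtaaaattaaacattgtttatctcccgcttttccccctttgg
The strongest site held none of the 7 words searched. The last window holds the word on both strands in overlapping copies, starting 25 and 20 bases before the summit. At the upstream site the word lies at the edge of the window, 48 bases before the summit.

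The second receptor gene, fz2 (FBgn0016797, 3L:19140975–19235373, minus strand), encodes Frizzled 2, which also binds Wingless with Arrow. At 94.4 kb it is as long as fz, at 94.3 kb, and had more pooled candidates, 75 against 56, but only 3 of them were in the IDR set. Their scores were 195, 192 and 183, with ranks of 3138, 3228 and 3446, all in the lower part of the set. The highest, at 3L:19162808–19163223, lay 7632 bp downstream of the nearest of 3 annotated starts. The lowest, at 3L:19168985–19169400, lay 1455 bp downstream of the same start. The third, at 3L:19191802–19192217, lay 21.4 kb upstream of it and 43.4 kb inside the gene. It was in an intron of 2 of the 8 annotated transcripts, and the nearest TSS was that of lncRNA:CR45941, 7284 bp away. Replicate 1 ranked the 3 sites 2640, 4670 and 5511 in the order of their pooled scores, so that 2 of them were outside its 4089 highest candidates. Replicate 2 ranked them 3140, 2777 and 3094. The replicate 1 summit assigned to the highest site lay 179 bp away, the largest shift among the 22. Thus 1 of the 3 fz2 summits was inside rank 4089 in both replicates, and all 7 fz summits were.

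The window of the highest fz2 site, on the minus strand as the gene runs, holds the only other word found outside arr, a GAGA run of GAGAGAG read on the opposite strand and shown in capitals.
fz2, chr3L:19162966-19163066: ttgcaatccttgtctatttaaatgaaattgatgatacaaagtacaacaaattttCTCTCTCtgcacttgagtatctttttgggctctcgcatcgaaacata

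The co-receptor gene arr (FBgn0000119, 2R:13453640–13483229, minus strand) encodes Arrow, the fly homologue of LRP5 and LRP6. It had the densest peaks, 14.1 IDR summits per 100 kb of the gene and its flanks, against 6.12 for fz, 4.57 for sgg, 2.62 for fz2 and 3.05 for the arms as a whole. IDR summits were 26.9% of its pooled candidates, against 12.5% for fz and 4% for fz2. Both arr figures count 7 summits, of which 5 lay in the gene body and 2 at the neighbouring gene cnn. At the only TSS of arr the summit lay 78 bp downstream, in intron 1, at 2R:13482943–13483358, with a score of 251 and rank 2171. It ranked 3433 in replicate 1 and 1767 in replicate 2. A second summit in intron 1 lay 896 bp from the TSS with a score of 179.6 and was outside the 4089 highest of replicate 2, at rank 4280. Intron 2 held summits 8238, 10506 and 12913 bp from the TSS with scores of 279, 252 and 166. The last ranked 6739 in replicate 1 and 3196 in replicate 2. The highest-scoring summit of the arr region, 488 with rank 703, lay 4054 bp beyond the 3′ end of arr. That summit and a weaker one 3855 bp beyond the end, with a score of 275, have overlapping intervals. Both lie inside cnn, which encodes a component of the centrosome, 186 and 385 bp upstream of one of its starts. By position they cannot be told apart from promoter peaks of the neighbouring gene.

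The ligand gene wg (FBgn0284084, 2L:7307159–7316265, plus strand) had no IDR summit in its body or within 10 kb. Its highest pooled candidate lay 8207 bp upstream with a score of 161.5 and rank 4132, just outside the IDR set. Replicate 1 placed that site inside its 4089 highest candidates, at rank 3403, and replicate 2 placed it outside, at 5855. A candidate in an intron 6500 bp from the TSS had a score of 139 and rank 5107. At the TSS itself the candidate 145 bp upstream had a score of 74.5 and rank 11995. It had no candidate of replicate 1 within 200 bp.

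The wg gene lies in a cluster of Wnt ligand genes on 2L, with Wnt4 on one side and Wnt6 and Wnt10 on the other. The cluster and its flanks held 11 IDR summits, and wg lay between neighbouring ones. The nearest on the upstream side lay 11.044 kb from the wg TSS, with a score of 316 and rank 1520. On the other side the nearest lay 17.007 kb beyond the 3′ end. The arms as a whole held 3.05 IDR summits per 100 kb, and whether the space around wg is unusual was not tested. The one beyond the 3′ end belongs to a pair at the TSS of Wnt6 with scores of 250.3 and 192. The stronger of the pair, at rank 2177, had no candidate of replicate 1 within 200 bp. The weaker one, whose interval overlaps that of the stronger, ranked 2109 in replicate 1 and 4001 in replicate 2. Wnt4 held 5 IDR summits in its body, the highest with a score of 315 and one of 219.6 at its TSS. The TSS nearest to the highest was that of CG31909, 4702 bp away. It was also the nearest to the summits that lay 796 and 8656 bp from it.

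Among the cytoplasmic genes, sgg had 3 IDR summits in its body, dsh had 1 in its upstream flank and Axn had none. The gene sgg (FBgn0003371, X:2633952–2679553, plus strand) encodes the GSK3 kinase of the destruction complex and has 11 annotated starts. Its highest summit lay 186 bp upstream of an internal start, at X:2646296–2646582, 12.5 kb from the outermost one. The score was 853 and the rank 225 in the IDR set, 290 in replicate 1 and 187 in replicate 2. The same site lies in an intron of 14 of the 19 annotated transcripts. With the outermost TSS alone, sgg would have no promoter summit. The other sgg summits lay 957 bp downstream of that internal start and 5055 bp upstream of another start, with scores of 206 and 221. All 3 were inside rank 4089 in each replicate.

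The gene dsh (FBgn0000499, X:11355881–11358724, plus strand) encodes Dishevelled, which passes the signal from Frizzled receptors into the cell. Its body held no IDR summit. The summit 4361 bp upstream, at X:11351419–11351648, had a score of 541 and rank 572, with ranks of 649 and 556 in replicates 1 and 2. It lies in an intron of CG1737, 912 bp from a start of that gene, so by position it is closer to CG1737 than to dsh. Pooled candidates at the dsh TSS itself, 164 bp upstream and 123 bp downstream, had scores of 52.4 and 50.3 and ranks of 20114 and 21325 in a list of 30000.

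The windows of the highest sgg and dsh sites are given on the plus strand for comparison with fz, and neither holds a searched word.
sgg, chrX:2646401-2646501: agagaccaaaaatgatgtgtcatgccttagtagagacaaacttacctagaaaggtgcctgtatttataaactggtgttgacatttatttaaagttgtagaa
dsh, chrX:11351470-11351570: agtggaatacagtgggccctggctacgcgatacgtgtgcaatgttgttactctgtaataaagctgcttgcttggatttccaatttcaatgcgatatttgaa

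The gene Axn (FBgn0026597, 3R:30022842–30035311, plus strand) encodes Axin, the scaffold of the destruction complex. None of its 7 pooled candidates lay in the gene body. The highest, 782 bp upstream with a score of 129 and rank 5623, lies in Mgat2, 161 bp from the start of that gene. Replicate 2 ranked it 3472, inside its 4089 highest, and replicate 1 had no candidate within 200 bp. The replicates thus differed over Axn, with 12 candidates in replicate 2 and 1 in replicate 1.

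At the transcriptional end of the pathway, arm and pan had no IDR summit in their bodies. The gene arm (FBgn0000117, X:1891401–1900646, minus strand) encodes Armadillo, the fly β-catenin. It had 3 pooled candidates. The highest, with a score of 123 and rank 6007, lay 7380 bp upstream of arm, in Edem1 and 47 bp from a start of that gene. The one at the starts of arm itself lay 259 bp upstream of the nearest, with a score of 109.8 and rank 7009. Replicate 2 had 10 candidates in and around arm, and replicate 1 had none. The gene pan (FBgn0085432, 4:69326–114270, plus strand) encodes the TCF factor that binds DNA with Armadillo and lies on the small chromosome 4. Its one IDR summit lay 2093 bp upstream, at 4:67025–67440, with a score of 318 and rank 1503, ranked 1919 in replicate 1 and 1177 in replicate 2. That summit is 26 bp from the TSS of RpS3A, a cytosolic ribosomal protein gene, so by position it is closer to that promoter than to pan. At a start of pan itself a pooled candidate 101 bp upstream had a score of 84.3 and rank 10036.

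Of the 22 IDR summits, 18 were inside rank 4089 in both replicates (81.8%), against 74.0% of all IDR summits. In replicate 1 it was 19 of 22 and in replicate 2 it was 21 of 22. The 4 that were not in both were 2 of fz2 and 2 of arr. Among the 18, the fz2 summit was matched in replicate 1 to a summit that lay closer to another pooled candidate. Each of the 22 had a candidate in each replicate within 200 bp. The median shift of the summit was 19 bp in replicate 1 and 5 bp in replicate 2. The pooled list is built from the same reads as the replicate lists, so these figures describe the lists and are not independent of the choice of summits.

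**Figure D2:**
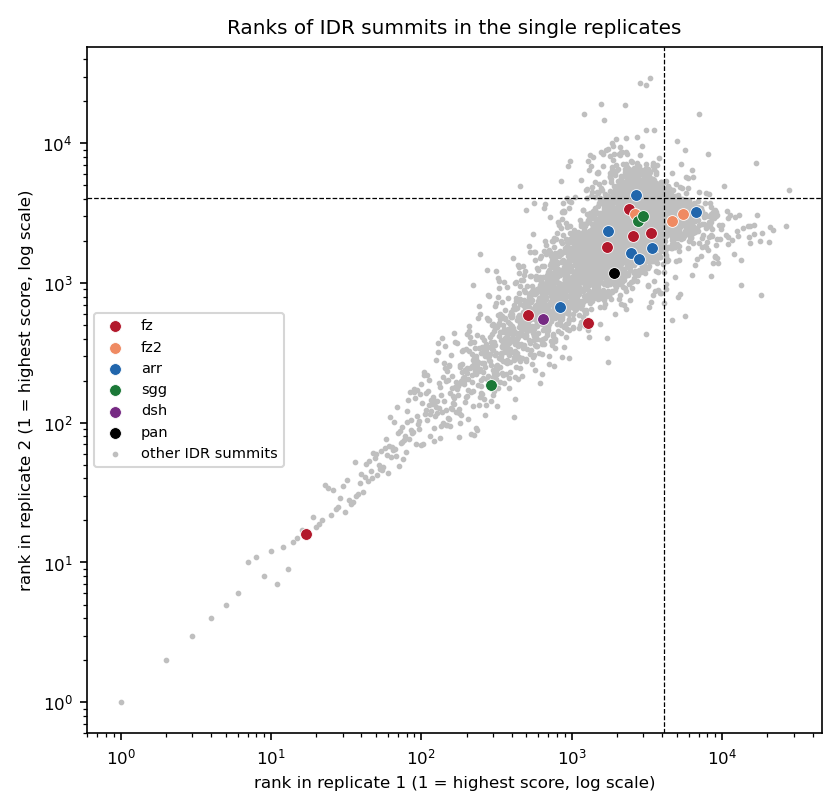
Rank of IDR summits in replicate 1 (x axis) and replicate 2 (y axis), both on log scales, for the genes with IDR summits (coloured) and others (grey). Only summits with a candidate within 200 bp in each replicate are drawn. Dashed lines mark rank 4089. The strongest fz summit lies at ranks 17 and 16, and 18 of the 22 coloured points lie below the horizontal and left of the vertical line.

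Values just inside and just outside the IDR set were close together. The 3 lowest members inside were a fz2 summit with a score of 183 and arr summits with 179.6 and 166. The next outside were at wg with 161.5, at fz2 with 159.7 and at fz with 159.2 and 157.8. The lowest score in the whole IDR set was 162.7. The wg candidate thus missed the set by a small margin. The highest candidates around Axn and arm, 129 and 123, lay further below it, near starts of Mgat2 and Edem1.

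The replicates gave different numbers of weak candidates. Replicate 2 had more candidates than replicate 1 in 8 of the 9 genes and their flanks, and wg had 10 in each. Over the 9 genes there were 253 in replicate 2 and 168 in replicate 1. Within 500 bp of a TSS of the gene itself it was 23 and 2, where a candidate near several starts counts once. In the lists as a whole, 29.6% of replicate 2's candidates and 21.5% of replicate 1's lay within 500 bp of a TSS. Outside the IDR set, 9 pooled candidates lay at a TSS of 6 of the genes (fz2, wg, arm, dsh, sgg and pan). Of these, 8 had a replicate 2 candidate within 200 bp and none had one of replicate 1. Over all 6048 pooled candidates outside the IDR set at a TSS of any gene, 80.2% had one of replicate 2 and 58.3% one of replicate 1. Whether depth or another property of the libraries moves with this was not tested.

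**Figure D3:**
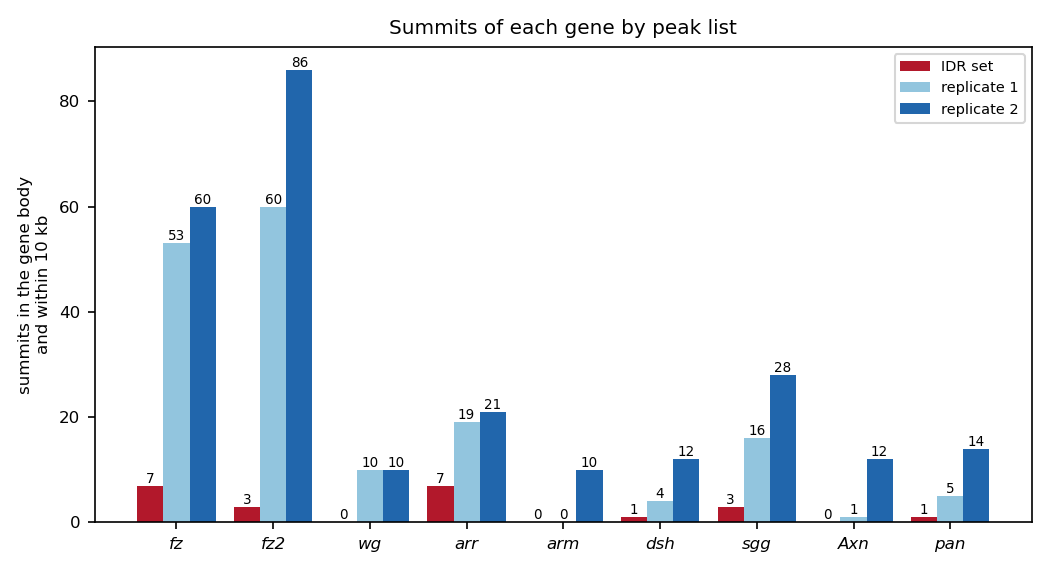
Number of summits in the body and within 10 kb of each gene (y axis) in the IDR set, in replicate 1 and in replicate 2, with the number above each bar. Replicate 2 is above replicate 1 for every gene but wg, where both have 10, and arm has 10 in replicate 2 and 0 in replicate 1.

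Short words were looked for, on either strand, in the 101 bases centred on each summit (50 bp either way). TATTTAC was at 5 of the 22 summits, 3 in fz and 2 in arr, against 8.36% of all IDR summits and 3.78% of the 25911 other pooled candidates. TATTTAC and TGTTTGC were searched because they were seen in earlier results of these data, so their shares at IDR summits are not separate evidence. GAGAGAG, the GAGA element, was at 1 (fz2), against 1.49% of all IDR summits and 1.75% of other candidates. CTTTGAT, a core of the site that Pangolin binds, was at none of the 22, against 1.71% of IDR summits and 1.89% of others. GCCGCC, the helper element that accompanies Pangolin sites, was at none, against 2.45% and 4.50%. TGTTTGC (6.26% of IDR summits), CAGGTAG of the Zelda site (0.587%) and TATCGAT of the DRE (2.45%) were at none either. No match says only that these letters are not in these 22 windows. The median GC content of the windows was 35.1% at members, 33.7% at all IDR summits and 40.6% at other candidates.

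A wider list of 45 Wnt and planar polarity genes, all matched by symbol, was set beside the 9. Of these, 13 had an IDR summit at a TSS, against 14.1% of all protein-coding genes, 18 had one in the body, against 10.6%, and 38 had one in the body or within 10 kb, against 55.0%. These genes are also longer than most, with a median of 9.02 kb. Among those under 10 kb, 4 of 24 had an IDR summit in the body, against 5.45% of all such genes. Among those of 10 to 40 kb it was 11 of 16, against 38.2%, and among those of 40 kb or more 3 of 5, against 53.6%. The wider list was also drawn up with earlier results of these data known, so its counts are a description and were not tested.

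The roles hold few genes each, and their counts at a TSS stand against 14.1% of all protein-coding genes. IDR summits at a TSS were found for 2 of 6 other ligand genes, Wnt4 and Wnt6, and for 1 of 2 secretion genes. It is wls, which encodes the carrier of Wnt proteins to the cell surface, with a score of 176 at a start it shares with Adck5. Of 9 other receptor and co-receptor genes 2 had one, the glypican genes dally with 164 and dlp with 217, and dlp shares the peak with RecQ5. The Frizzled genes fz3 and fz4 had no IDR summit in their bodies but had 3 and 4 within 10 kb. In the body, otk, which encodes a receptor-like protein of Wnt signalling, had a summit of 621 and dlp one of 437.

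Of 7 other genes assigned to the destruction complex, 3 had an IDR summit at a TSS. They were gish, a casein kinase gene, with 1376 and rank 73, Apc, which encodes the fly APC protein, with 287, and the casein kinase gene dco with 218. Of 8 nuclear genes 4 had one, against the same 14.1% of all genes: the co-repressor gene gro with 809, nej, which encodes the CBP acetyltransferase, with 216, skd, a Mediator subunit gene, with 194 at a start near Pdss2, and hyx with 163 at a start near neur. The highest-scoring summit of the wider list lay in the body of skd, with 5402 and rank 12. Of the feedback inhibitors, nkd had one at a TSS, with 371, and Notum did not, though its body held 2. Of the 11 planar polarity genes, 0 had an IDR summit at a TSS, against 14.1% of all genes, and 2 had one in the body, pk and mwh, against 10.6%. Their median length was 4.55 kb, and counts this small are near those shares.

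Genes were also ordered by the number of IDR summits in the body. Of all protein-coding genes, 46 had at least the 6 that fz has. Of the 24 genes other than fz with 6 or 7, the 5 nearest to fz in length were Eip63E with 6 summits in 94.8 kb, CG32264 with 7 in 91.6 kb, pyd with 6 in 105 kb, SNF4Agamma with 7 in 73.5 kb and mam with 6 in 69.2 kb. The highest scores in these 5 bodies were between 245 and 662, against 3483 in fz. The likeness is in number and length alone.

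**Figure D4:**
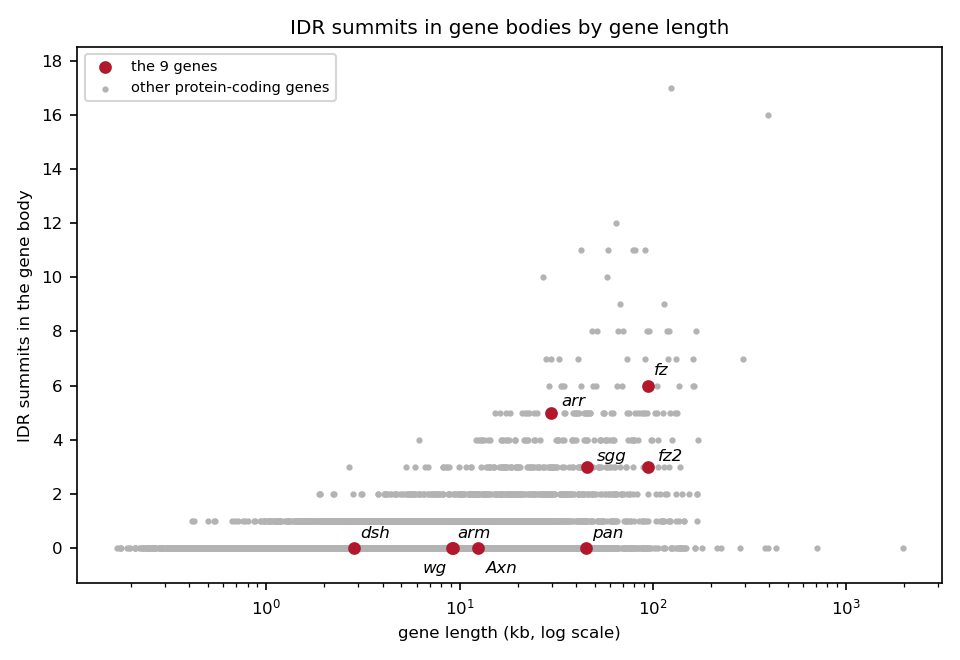
IDR summits in the gene body (y axis) against gene length in kb (x axis, log scale) for the 9 genes (red, labelled) and all other protein-coding genes (grey). The counts of fz (6), arr (5), fz2 (3) and sgg (3) lie among those of other long genes, and pan, at 44.9 kb, has none.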

How the data were processed

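The deposited notes state that each candidate list was built on dm6 from alignments and 1 control file, and that the kept set came from those lists through IDR. Which aligner, caller and threshold were applied is not stated in the sources used here. The deposited score is the authors' caller value for each peak, used only to rank peaks within 1 list. No read totals were used, so depth is unknown. Per the labels, sonicated fragments were 200 to 800 bp long.

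The summit is the interval's start plus its summit offset. Genes and TSSs came from Ensembl release 115, without mobile elements, and bases were read from RefSeq's dm6 genome. An IDR summit was matched to the nearest replicate summit within 200 bp. The counting was checked on simulated data. Work was done in Python 3.11.15 with pandas 2.3.3.

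The members, the wider list and the words were chosen with earlier results of these data known, so no test was run. Genes named are the 9 members, genes at or around their IDR summits, genes of the wider list with an IDR summit at a TSS or among the 5 highest in the body, and the 5 genes most like fz. Counts and genes for other wider-list members, the Wnt cluster and candidates outside the IDR set were chosen after their values were seen. Alternatives changed the list, the windows, the flanks and what counts as a hit.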

Additional observations from a re-analysis of the deposited data

How the results depend on the processing

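With one replicate left out, the 4089 highest candidates of the other stood in for the IDR set. Members with a summit at a TSS were then 2 in either case, against 14.1% of all protein-coding genes. Those with one in the body were 4, against 11% of all genes without replicate 1 and 10.2% without replicate 2. Those with one in the body or flanks were 7, against 55.2% and 54.7%. The summits in all were 22 or 23. Axn gained a summit without replicate 1 and wg one without replicate 2. The upper 2044 IDR summits left 1 member with a TSS summit (sgg), against 8.05% of all protein-coding genes, and 10 summits in all, none of them in fz2. The 8178 highest pooled candidates gave 4 members with a TSS summit (arr, sgg, fz2 and arm) against 23.3% of all, and 60 summits in the body or flanks of all 9 members, where 70.1% of all genes had one. With the outermost TSS alone, 1 member (arr) had one, against 12.1% of all. TSS windows of 250 and 1000 bp left the 2 members as they were, against 10.9% and 16.8% of all genes. Overlap of the interval in place of the summit left 2 members at a TSS, against 15.2% of all. It left 4 in the body, against 16.2% of all where the summit gave 10.6%, and 6 in the body or flanks, against 55.6%. Flanks of 20 kb gave 8 members, against 71.9% of all genes, and 31 summits. Flanks of 5 kb gave 6 members, against 40.4% of all, and 22 summits. No paired analysis was possible because the replicates form a single group. Read depth is unknown, so no limit can be put on a missing peak.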

Other observations

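Of the wider list, 6 genes picked after their values were seen had no IDR summit in the body or at a TSS but had one of at least 600.8 within 10 kb. An IDR summit of any score lay in the body or within 10 kb of 55.0% of all protein-coding genes. The share of all genes that meet the rule used for these 6 is not given here, so their number is a description alone. The highest lay near pygo, which encodes a nuclear partner of Armadillo, with a score of 1373 and rank 74. Near dgo the highest was 862, near Vang 786 and near ds 600.8. Near slmb, which encodes the F-box protein that recognises marked Armadillo, it was 646, and near CkIalpha 643. The cut of 600.8 is itself the lowest of these scores, that near ds. The genes at those summits were not examined, so these positions do not link the summits to the pathway genes.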
